A study of Mus musculus with 8 samples.

Results

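Cells sense RNA that should not be there, such as viral double-stranded RNA, with a small set of proteins in the cytosol and in endosomes. The cytosolic helicases RIG-I (gene Ddx58) and MDA5 (Ifih1) bind such RNA and signal through MAVS, an adaptor on mitochondria, to the kinases and transcription factors that switch on interferon genes. LGP2 (Dhx58) modulates this signal and TLR3 detects double-stranded RNA in endosomes. ZBP1 binds left-handed nucleic acid and can start necroptosis through the kinase RIPK3, PKR (Eif2ak2) stops translation when it binds double-stranded RNA, and ADAR edits the cell's own RNA so that it is not sensed. Many of these genes are themselves induced by interferon, and dendritic cells use the pathway to start antiviral responses.

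The genes described are Ddx58, Ifih1, Dhx58, Mavs, Zbp1, Ripk3, Tlr3, Eif2ak2, Adar and Ddx60, 10 of the 55376 genes of the deposited count table. They were chosen by name for their role in RNA sensing, with earlier results of these data known. All 10 were in the table and all 10 passed the filter on low counts. The samples were mouse dendritic cells grown from bone marrow and stimulated overnight with heat-inactivated Prevotella, either P. heparinolytica (PH, 3 samples) or P. melaninogenica (PM, 3 samples). Mouse strain and age are not given in the labels, all samples received a bacterium, and no untreated cells were analysed here, so each value below compares 1 bacterium with the other. Samples carry the ids 1, 3 and 4 in both groups. The table has 6 count columns for 8 listed libraries, since PM id 1 and PH id 3 were each sequenced in a second run.

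Total counts ranged from 11624367 (PH id 3) to 40233148 (PH id 4). PH id 3 also had the highest level of the predicted gene Gm42418, at 4013.5 CPM (read counts scaled to the same library total) against 867.0 to 1462.4 in the other samples. Measured CPM values of the genes below were in addition TMM-scaled between samples, with factors from 0.979 to 1.02. General dendritic cell genes were present in both groups, among them Cd74 (3789.9 ± 443.2 CPM with PH and 3814.1 ± 372.7 with PM, SD, n = 3), the integrin gene Itgax (152.0 ± 16.9 and 160.9 ± 19.5) and the transcription factor gene Zbtb46 (75.8 ± 8.82 and 72.0 ± 11.3). Of 2 markers of cross-presenting dendritic cells, Xcr1 was at 0.250 ± 0.0827 and 0.307 ± 0.141 CPM and Clec9a at 0.473 ± 0.128 and 1.16 ± 0.284 CPM. All PM samples were above all PH samples for Clec9a (edgeR adjusted p = 0.0974, and 0.00412 with the sample id as a block). Irf4, a transcription factor gene of dendritic cells, was at 331.8 ± 3.86 and 274.3 ± 19.3 CPM (edgeR adjusted p = 0.0961, and 5.8e-05 with the block), and Cd209a had 0 counts in each sample. The macrophage-associated genes Adgre1 (503.7 ± 115.3 and 486.8 ± 105.5 CPM) and Csf1r (462.3 ± 92.1 and 497.6 ± 112.3) were also present. In such bulk samples, fewer cells of a type and less RNA per cell cannot be told apart.

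The promoters of these genes are shown first, because genes induced by interferon often carry a site for interferon regulatory factors (IRF) or the interferon-stimulated response element (ISRE) near their start. RefSeq promoter windows on GRCm38.p6, 250 bases before and 50 after a transcription start, were on hand for 8 of the 10 genes (10 windows, 3 of them for Adar), but not for Dhx58 and Zbp1. Windows were searched on both strands for the IRF core AANNGAAA and for the ISRE core GAAANNGAAA, in which N is any base and which always contains the shorter motif. The ISRE core was found in Ddx58, Ifih1, Eif2ak2 and Ddx60, 4 of the 8 genes, and in 3.99% of the 27025 genes with a window. The IRF core was found in 6 of the 8, these 4 with Adar and Tlr3, and in 26.7% of all genes. Neither was found in Mavs or Ripk3. A match describes letters only, and binding was not measured.

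The sequences below run 5′ to 3′ on the gene's strand, with matched bases in capitals. Position 1 is the first base after the 250 upstream bases. The first 5 are the 120 bases upstream of the RefSeq start. They are shown for the 3 genes with a match there (Ddx60, Ddx58 and Tlr3). They are also shown for the 2 genes with no match in the whole window (Mavs and Ripk3). RefSeq starts can differ from the spans counted for the genes. The Tlr3 stretch lies inside the span counted for Tlr3, which reaches to 45410619. Ifih1, Eif2ak2 and Adar had no match upstream of a RefSeq start. The ISRE core of Ifih1 lies after its RefSeq start but outside the span counted for Ifih1, which reaches only to 62646211. The other 4 are 30-base stretches around matches just after the start, which for Ddx58 lies on the opposite strand.
Ddx60, chr8:61927967-61928086, plus strand: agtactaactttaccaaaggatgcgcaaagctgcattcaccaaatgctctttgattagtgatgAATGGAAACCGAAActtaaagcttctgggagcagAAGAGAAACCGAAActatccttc
Ddx58, chr4:40239826-40239945, minus strand: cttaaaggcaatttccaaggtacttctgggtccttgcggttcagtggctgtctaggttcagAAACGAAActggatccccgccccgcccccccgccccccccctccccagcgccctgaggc
Tlr3, chr8:45410381-45410500, minus strand: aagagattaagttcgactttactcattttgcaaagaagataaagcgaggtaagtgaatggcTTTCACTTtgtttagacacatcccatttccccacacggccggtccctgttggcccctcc
Mavs, chr2:131233943-131234062, plus strand: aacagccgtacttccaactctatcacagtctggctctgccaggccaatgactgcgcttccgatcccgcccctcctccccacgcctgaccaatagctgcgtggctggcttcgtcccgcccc
Ripk3, chr14:55788858-55788977, minus strand: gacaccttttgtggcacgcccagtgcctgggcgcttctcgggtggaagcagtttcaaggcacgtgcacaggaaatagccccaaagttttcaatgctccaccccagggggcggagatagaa
Ddx58 around its start, chr4:40239804-40239833, minus strand: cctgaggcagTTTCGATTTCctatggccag
Ifih1, chr2:62646206-62646235, minus strand: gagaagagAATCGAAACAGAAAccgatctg
Eif2ak2, chr17:78882535-78882564, minus strand: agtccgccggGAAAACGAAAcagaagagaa
Adar, the third of its starts, chr3:89730736-89730765, plus strand: ccttttcaaggAAACGAAAgtgaactctgg

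**Figure D1:**
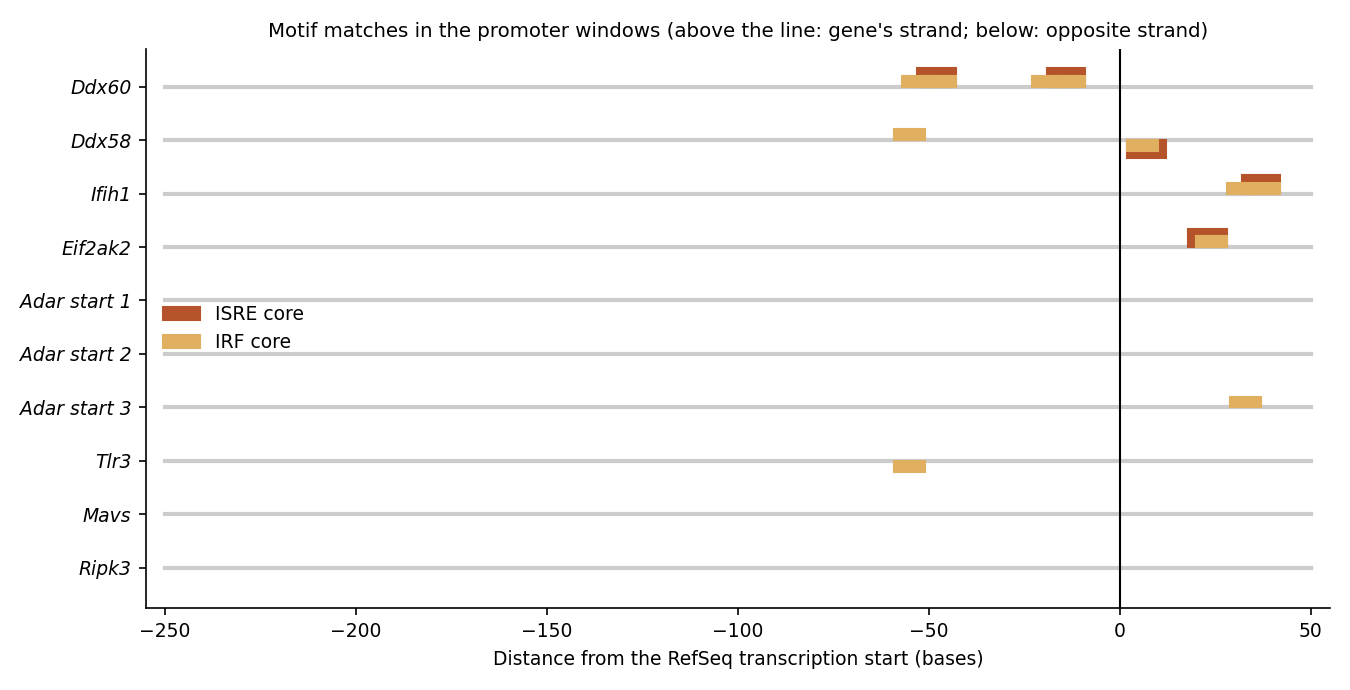
Positions of motif matches in the 10 promoter windows, by distance from the RefSeq transcription start in bases. Boxes above a line are matches on the gene's strand and boxes below it on the opposite strand. Ddx60 has 2 ISRE cores upstream of the start (positions -53 to -44 and -19 to -10), those of Ifih1 (33 to 42), Eif2ak2 (19 to 28) and Ddx58 (3 to 12) lie after it, and Mavs and Ripk3 have no match.

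Cells given PM had lower levels of 7 of the 10 genes than cells given PH, and 0 were higher. Zbp1 and the helicase genes Ddx60, Ddx58, Dhx58 and Ifih1 differed most, Eif2ak2 and Adar less, and Mavs, Ripk3 and Tlr3 did not pass the test (edgeR quasi-likelihood test, adjusted p under 0.05 over all 14382 genes tested). Of all genes tested, 1.64% were lower with PM by this rule and 0.702% were higher. The median log2 fold change (PM over PH) of the 10 genes was -0.72, against 0.01 for all genes tested. In the same 7 genes all PM samples lay below all PH samples, which held for 9.28% of all genes. When the id was fitted as a block, 7 were lower (8.27% of all genes) and 1, Ripk3, was higher (7.00% of all genes). Because the 10 genes were chosen with earlier results of these data known, these shares describe the group and do not test it. The labels leave unsaid whether the ids stand for mice or for dishes. What the p-values reflect is therefore sample-to-sample spread, and that may be technical.

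**Figure D2:**
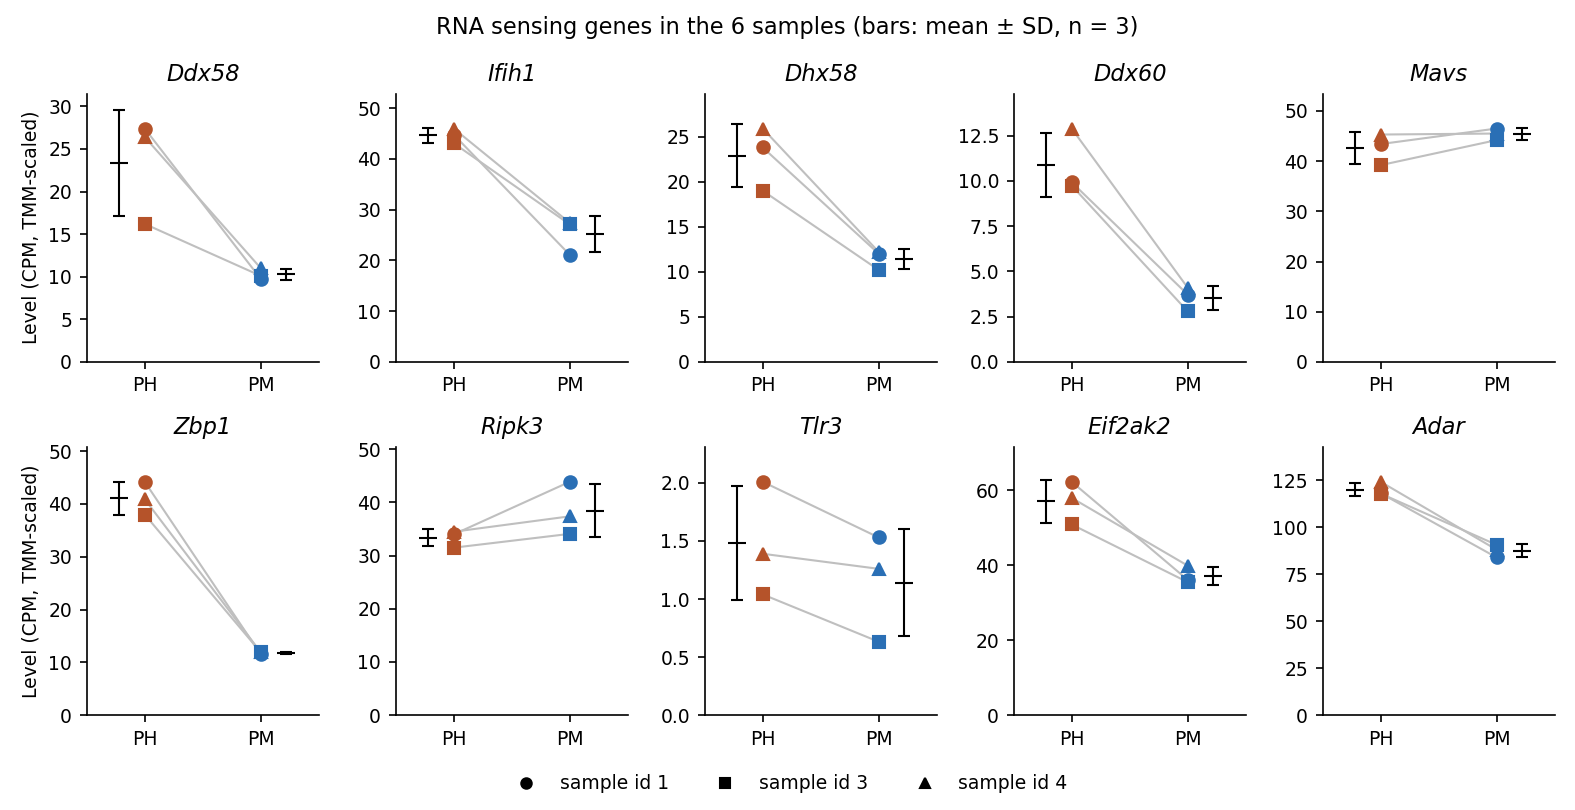
Levels of the 10 genes in TMM-scaled CPM (vertical axis from 0), with 1 point per sample, grey lines joining samples of the same id, and bars for the mean ± SD of 3 samples. The PM points of Ddx58, Ifih1, Dhx58, Ddx60, Zbp1, Eif2ak2 and Adar lie below their PH points, while those of Mavs, Ripk3 and Tlr3 overlap them.

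Ddx58 encodes RIG-I, which detects short double-stranded RNA and RNA with a 5′ triphosphate. It lies on chromosome 4, 40204849 to 40239828, minus strand (GRCm38). Its level was 27.4, 16.2 and 26.4 CPM in PH ids 1, 3 and 4, and 9.74, 10.1 and 11.0 CPM in PM ids 1, 3 and 4. PH id 3, the shallowest sample, stood apart from the other PH samples but was still above each PM sample. The log2 fold change was -1.20 ± 0.17 (SE, edgeR adjusted p = 0.00905), which is 2.30-fold lower with PM. Ddx58 no longer passed edgeR's test without PH id 4 (adjusted p = 0.0598) or PM id 3 (adjusted p = 0.0538), with log2 fold changes of -1.11 and -1.19.

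Ifih1 (chromosome 2, 62595798 to 62646211, minus strand) encodes MDA5, which detects long double-stranded RNA. It was at 44.8, 43.1 and 46.0 CPM in the PH samples (ids 1, 3 and 4, as in each list of values that follows) and at 21.1, 27.1 and 27.4 CPM in the PM samples. The PH samples were close together, and PM id 1 was the lowest of all. Ifih1 changed by -0.82 ± 0.10 on the log2 scale (SE, edgeR adjusted p = 0.00423).

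Dhx58 (chromosome 11, 100694884 to 100704271, minus strand) encodes LGP2, a relative of both receptors that lacks their signalling domain. Its level was 23.8, 19.0 and 25.9 CPM with PH and 12.0, 10.2 and 12.2 CPM with PM. Id 3 was the lowest sample in each group, and the groups did not overlap. The change was -1.01 ± 0.13 on the log2 scale (SE, edgeR adjusted p = 0.00451), and the difference within ids was -0.98, -0.89 and -1.09. Exons of Dhx58 overlap the opposite-strand gene Dhx58os over 5.85% of their length, and the strand setting used in counting is unknown here.

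Ddx60 (chromosome 8, 61928089 to 62038244, plus strand), whose 2 ISRE cores are shown above, encodes a helicase-family protein that has been described as a cofactor of RIG-I. It was at 9.93, 9.75 and 12.9 CPM with PH and at 3.72, 2.79 and 4.10 CPM with PM. Even the lowest PH sample was more than any PM sample, on 78 to 519 reads per sample. The log2 fold change of -1.63 ± 0.18 (SE, edgeR adjusted p = 0.00260), 3.09-fold lower, was second in size among the 10 genes.

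Mavs (chromosome 2, 131234067 to 131248025, plus strand), the adaptor that RIG-I and MDA5 share, had levels of 43.4, 39.2 and 45.3 CPM with PH and 46.5, 44.2 and 45.5 CPM with PM. These ranges overlap. The log2 fold change was 0.08 ± 0.07 (SE, edgeR adjusted p = 0.680), with a 95% interval from -0.07 to 0.24. The interval thus leaves out a fall of the size measured for the receptors, whose intervals were -1.60 to -0.80 (Ddx58), -1.05 to -0.59 (Ifih1) and -1.30 to -0.73 (Dhx58). As shown above, the Mavs window held neither motif, but the IRF core was found in only 26.7% of all genes. A link between motifs and changes was not tested.

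Zbp1 (chromosome 2, 173206612 to 173218923, minus strand) encodes a sensor of left-handed double-stranded nucleic acid. It was at 44.2, 38.0 and 40.9 CPM with PH and at 11.5, 11.9 and 11.9 CPM with PM. Both groups were tight, with SDs of 3.11 and 0.213 CPM, and far apart. Zbp1 fell by 1.81 ± 0.08 on the log2 scale (SE, edgeR adjusted p = 6.4e-05), 3.50-fold, the largest change of the 10 genes. By its p it ranked 1 among the 14382 genes tested.

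Ripk3 (chromosome 14, 55784995 to 55788865, minus strand) encodes the kinase that ZBP1 engages through a shared interaction motif. Its levels were 34.0, 31.5 and 34.5 CPM with PH and 43.9, 34.1 and 37.4 CPM with PM. PM id 1 was the highest, PM id 3 lay within the PH range, and the groups overlapped. The log2 fold change was 0.20 ± 0.10 (SE, edgeR adjusted p = 0.436), with a 95% interval from -0.02 to 0.42. With the sample id as a block edgeR gave 0.20 ± 0.06 (SE, adjusted p = 0.0289), and PM was higher within each of the 3 ids, by 0.36, 0.12 and 0.11. This blocked call passed without id 4 (adjusted p = 0.0496 by edgeR) but not without id 1 or id 3.

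Tlr3 (chromosome 8, 45395665 to 45410619, minus strand), the endosomal receptor for double-stranded RNA, was the least abundant of the 10 genes. It had 49, 12 and 56 counts in the PH samples and 32, 19 and 49 counts in the PM samples. That is 2.01, 1.04 and 1.39 CPM with PH and 1.53, 0.632 and 1.26 CPM with PM, so the groups overlapped widely, and id 3 was the lowest in both. PM was lower within all 3 ids, with differences of -0.38, -0.65 and -0.14 on the log2 scale, and the blocked fit did not pass either (edgeR adjusted p = 0.411). The log2 fold change was -0.44 ± 0.35 (SE, edgeR adjusted p = 0.666), with a 95% interval from -1.24 to 0.35. This interval holds 0 and also the values measured for Ddx58, Ifih1, Dhx58, Eif2ak2 and Adar. It leaves out only falls as large as those of Zbp1 and Ddx60.

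Eif2ak2 (chromosome 17, 78852564 to 78882573, minus strand) encodes PKR, the kinase that phosphorylates the translation factor eIF2 alpha. It was at 62.3, 50.9 and 58.0 CPM with PH and 36.1, 35.5 and 39.9 CPM with PM. The groups were apart, with PH id 3 the lowest of its group. Eif2ak2 changed by -0.62 ± 0.09 on the log2 scale (SE, edgeR adjusted p = 0.00742), or by -0.61 without PH id 4, where it no longer passed (adjusted p = 0.0516).

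Adar (chromosome 3, 89715022 to 89753446, plus strand) encodes the adenosine deaminase that edits double-stranded RNA, as a short constitutive form and as a longer form made from an interferon-inducible start. It was at 118.1, 117.9 and 124.2 CPM with PH and at 83.9, 90.6 and 88.0 CPM with PM. Spread within groups was small and the groups were apart. Adar fell by 0.46 ± 0.06 on the log2 scale (SE, edgeR adjusted p = 0.00495), to 27.1% less with PM, the smallest of the 7 changes. Counts per gene pool both forms, so the forms cannot be told apart. Of the 3 windows of Adar, the third alone had a match, an IRF core. It lies in the 50 bases after that start, which as an unbroken stretch were found in no GENCODE transcript, unlike those of the other windows. Only the whole stretch was searched for, so this does not show that GENCODE lacks the start. Exons of Adar overlap the opposite-strand gene Chrnb2 over 22.8% of their length.

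**Figure D3:**
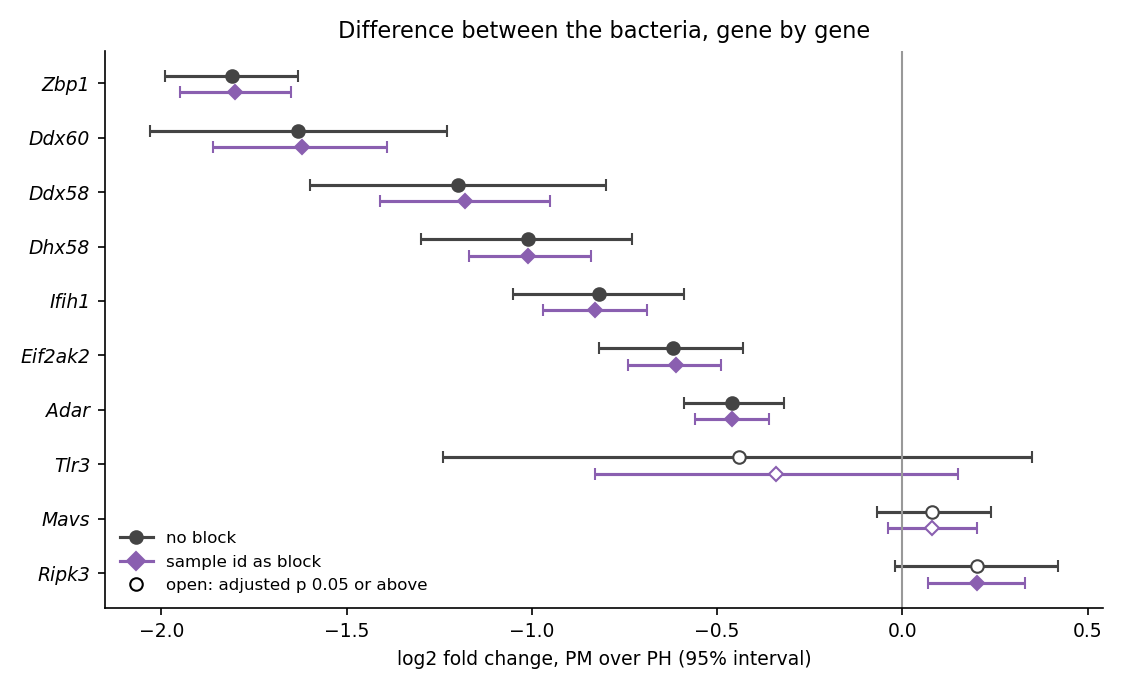
Log2 fold change, PM over PH, of the 10 genes with 95% intervals from edgeR, without a block (circles) and with the sample id as a block (diamonds). Filled symbols have an adjusted p under 0.05. Values run from -1.81 (Zbp1) to 0.20 (Ripk3), and only Ripk3 is filled in one fit and open in the other.

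The size of the change differed among the 7 genes that fell. The 95% intervals of Zbp1 (-1.99 to -1.63) and Ddx60 (-2.03 to -1.23) did not overlap those of Ifih1 (-1.05 to -0.59), Eif2ak2 (-0.82 to -0.43) or Adar (-0.59 to -0.32). Those of Ddx58, Dhx58 and Ifih1 overlapped, so an order among these 3 receptors was not resolved. Over the 6 samples, the log2 CPM of the 7 genes correlated pairwise with Pearson's r between 0.91 (Ifih1 and Dhx58) and 0.98. The 6 samples include the difference between the bacteria, so this describes these samples only. Ripk3 had r of -0.80 with Ifih1 and 0.77 with Mavs.

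Per length, in RPKM (CPM divided by gene length in kilobases), the order of levels changed between the bacteria. With PH, Adar (20.0 ± 0.594 RPKM, SD, n = 3) and Zbp1 (19.0 ± 1.44) were the most abundant and overlapped each other. Ripk3 (16.9 ± 0.824), Mavs (13.8 ± 1.01) and Eif2ak2 (13.2 ± 1.33) came next, the last 2 overlapping. Dhx58 (9.49 ± 1.47) overlapped Ifih1 (8.16 ± 0.264), and Ddx58 (6.03 ± 1.60), Ddx60 (1.66 ± 0.271) and Tlr3 (0.330 ± 0.110) were each below the gene before them in every sample. With PM, Ripk3 (19.5 ± 2.51 RPKM) stood first, above Mavs (14.7 ± 0.383) and Adar (14.6 ± 0.560), which overlapped. Zbp1 (5.43 ± 0.0986) came after Eif2ak2 (8.62 ± 0.554) and lay just above Dhx58 (4.75 ± 0.462) and Ifih1 (4.61 ± 0.646), whose ranges overlapped each other. Ddx58 (2.66 ± 0.166), Ddx60 (0.540 ± 0.103) and Tlr3 (0.254 ± 0.102) were again last.

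Ratios of RPKM values within a sample compare a sensor with its partner without any scaling between samples. Zbp1 over Ripk3 was 1.18, 1.10 and 1.08 in the PH samples and 0.239, 0.317 and 0.290 in the PM samples. Per length, Zbp1 RNA was thus slightly above Ripk3 RNA in each PH sample and well below it in each PM sample. Where a ratio lies relative to 1 depends on the gene lengths used, while its fold difference between the groups does not. Ddx58 over Mavs was 0.505, 0.331 and 0.465 with PH and 0.167, 0.183 and 0.193 with PM. Ifih1 over Mavs was 0.583, 0.623 and 0.575 with PH and 0.257, 0.348 and 0.341 with PM. For these 3 ratios the groups did not overlap. Ripk3 over Mlkl, the effector that RIPK3 phosphorylates in necroptosis, went the other way, at 1.11, 1.37 and 1.28 with PH and 1.85, 2.06 and 2.12 with PM. Dhx58 over Ifih1 (1.16 ± 0.145 with PH and 1.05 ± 0.223 with PM) and Tlr3 over its adaptor gene Ticam1 (0.0203 ± 0.00698 and 0.0154 ± 0.00573) overlapped. In a two-sided exact permutation test of log2 ratios, the 4 ratios without overlap each had p = 0.10, the smallest that 3 against 3 samples allow, and 0.15 after Benjamini-Hochberg adjustment over the 6 ratios. Dhx58 over Ifih1 had p = 0.70 and Tlr3 over Ticam1 p = 0.50 by the same exact test.

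**Figure D4:**
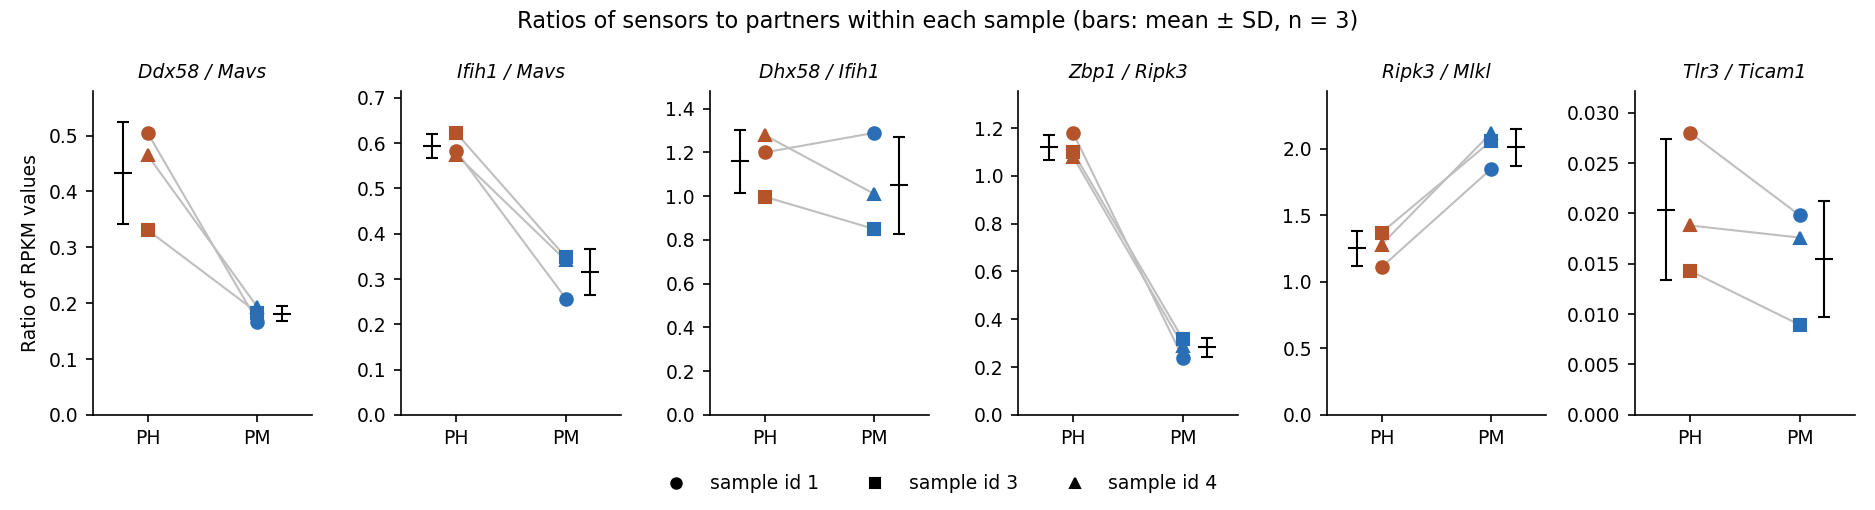
Ratios of RPKM values within each sample (vertical axes from 0) for 6 pairs of a sensor or kinase and its partner. Points are samples, grey lines join the same id, and bars give the mean ± SD of 3 samples. Zbp1 over Ripk3 goes from 1.12 ± 0.0544 with PH to 0.282 ± 0.0396 with PM, and Ripk3 over Mlkl from 1.26 ± 0.132 to 2.01 ± 0.140.

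Genes that carry the signal onwards were read from the same fit. Of 95 tested genes in 9 lists of pathway partners, 5 fell (5.26%, against 1.64% of all genes), 0 rose (0.702% of all genes) and the median was -0.03 on the log2 scale. With the block 14 fell and 5 rose, against 8.27% and 7.00% of all genes, and the counts for each list below are to be read against these shares. Of 16 RIG-I-like receptor adaptors, ligases and kinases 1 fell, Irf7, the transcription factor gene that amplifies interferon production and is itself induced by interferon. Irf7 was at 31.8, 23.9 and 36.3 CPM with PH and 7.40, 5.36 and 7.08 CPM with PM. The groups were far apart, at -2.23 ± 0.17 on the log2 scale (SE, edgeR adjusted p = 5.6e-04). Irf3, a factor that RIG-I signalling activates, had 61.5 ± 4.82 CPM (PH) and 65.7 ± 2.09 CPM (PM; edgeR adjusted p = 0.606). Trim25, a ubiquitin ligase described for RIG-I, was at 160.1 ± 11.1 and 159.3 ± 6.83 CPM (edgeR adjusted p = 0.978). With the block 5 of the 16 fell, among them the kinase genes Tbk1 (-0.20 ± 0.06, SE, without the block) and Ikbke (-0.30 ± 0.08). Their edgeR adjusted p was 0.195 and 0.0971 without the block, and 0.00710 and 1.9e-05 with it.

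Among 14 tested negative regulators 1 fell in both fits, Tnfaip3, which encodes the deubiquitinase A20 (-0.56 ± 0.07, SE). Of 9 necroptosis and death complex genes 1 fell, the caspase-8 regulator Cflar (-0.41 ± 0.07), and 3 with the block. Ripk1, which shares the interaction motif of RIPK3, had 74.5 ± 1.24 CPM (PH) and 74.1 ± 1.58 CPM (PM), and its log2 fold change had a 95% interval from -0.13 to 0.11. Mlkl was at 31.1, 23.3 and 27.4 CPM with PH and 24.0, 16.8 and 17.9 CPM with PM, lower within each id, and passed with the block only (edgeR adjusted p = 0.165, and 3.1e-06 with the block). Of 16 tested genes of the endosomal Toll-like receptor pathway 0 passed, and with the block 2 fell and 4 rose. Ticam1, the adaptor of TLR3, had a 95% interval from -0.13 to 0.14. Tlr7, the receptor for single-stranded RNA, was at 21.4 ± 4.28 and 24.6 ± 5.67 CPM (edgeR adjusted p = 0.740, and 0.0458 with the block). Tlr13, a mouse receptor for bacterial ribosomal RNA that was singled out after its values were seen, had 65.8 ± 12.3 CPM (PH) and 89.6 ± 12.2 CPM (PM), with edgeR adjusted p = 0.195, and 1.4e-07 with the block.

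No gene passed among 11 genes around PKR and the integrated stress response (1 rose with the block), 10 tested genes of RNA editing and double-stranded RNA binding, or 12 other RNA helicases, the last 2 lists with 0 calls in both fits. The helicases in that list had log2 fold changes with a median of 0.02, beside -1.20, -0.82, -1.01 and -1.63 for Ddx58, Ifih1, Dhx58 and Ddx60. The difference between the lists was not tested.

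Transcripts of interferons themselves were barely seen. Of 19 type I and III interferon ligand genes, 15 had 0 counts in all 6 samples. Ifnb1, the interferon beta gene, had 4, 1 and 0 counts in the PH samples and 0, 2 and 3 in the PM samples, and the other 3 with any count had 1 to 3 in total. A count of 0 allows a level of up to 0.258 CPM in the shallowest sample and 0.0746 in the deepest (3 counts, counting error only). At this depth no difference in interferon transcripts could be measured, and reads shared by near-identical Ifna genes could be lost in counting. Among genes for the interferon receptor and the factors it activates, Irf9, which encodes a DNA-binding factor, fell by 0.53 ± 0.07 on the log2 scale (SE, edgeR adjusted p = 0.00708). Stat2, whose product works with IRF9, had a log2 fold change of -0.45 ± 0.10 (SE) and passed with the block only (edgeR adjusted p = 0.0646, and 8.8e-09 with the block). Ifnar1, Ifnar2, Jak1 and Tyk2 did not pass in either fit.

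**Figure D5:**
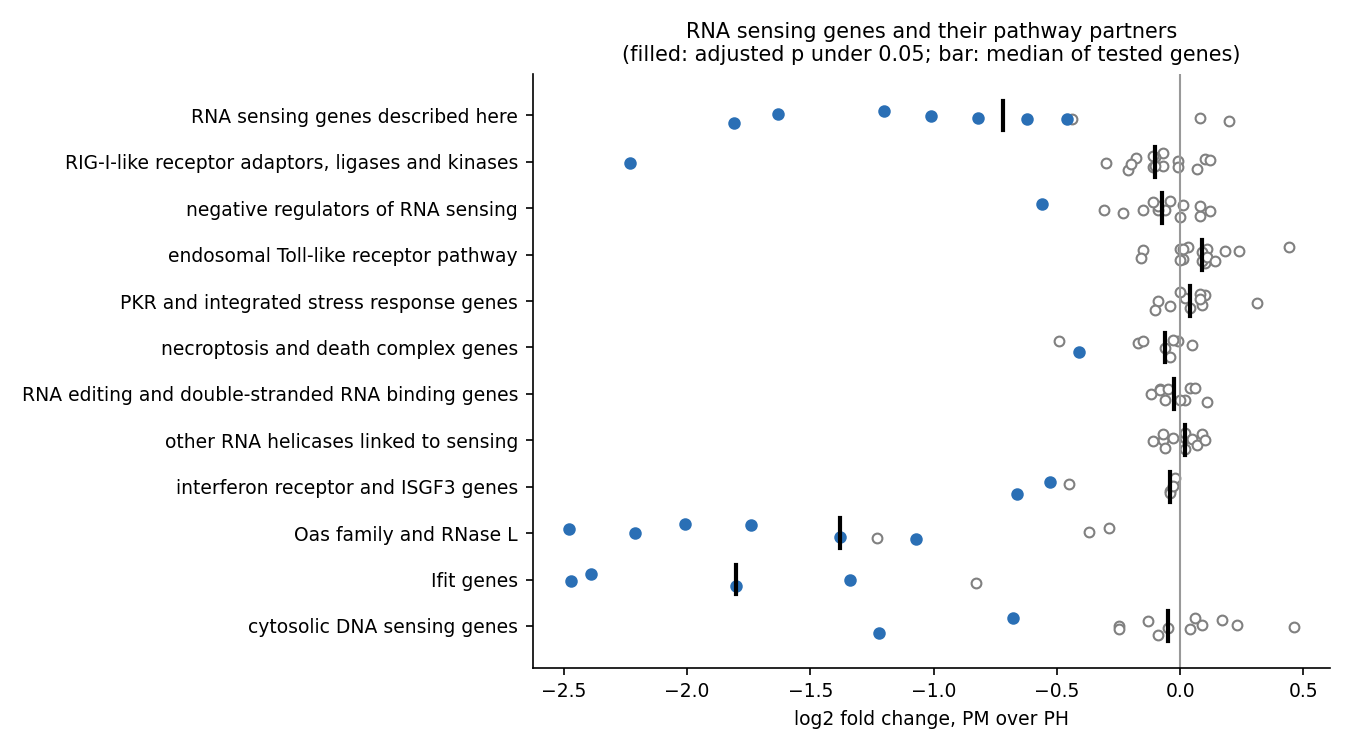
Log2 fold change, PM over PH, of tested genes in the RNA sensing group (top row), in lists of its pathway partners, and in the Oas, Ifit and DNA sensing lists. Filled points have an adjusted p under 0.05 by edgeR without a block, and black bars are medians, at -0.72 for the RNA sensing genes and between -0.10 and 0.09 for the partner lists.

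Other groups that act on foreign nucleic acid were set beside these genes. Of 9 tested genes of the Oas family and RNase L, whose products make and answer a second messenger upon double-stranded RNA, 6 fell and the median log2 fold change was -1.38. Of 5 tested Ifit genes, which bind foreign RNA ends, 4 fell and the median was -1.80. Of 13 cytosolic DNA sensing genes 2 fell, the nuclease gene Trex1 (-0.68 ± 0.05, SE) and the DNA-binding Ifi204 (-1.22 ± 0.19), with a median of -0.05, and 3 fell and 2 rose with the block. Cgas, the main DNA sensor, named after its values were seen, did not pass in either fit (edgeR adjusted p = 0.273, and 0.0520 with the block). Reads of near-identical Oas and Ifit copies may be split, so single members of these families are uncertain.

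The genes most like Ddx58 in pattern, by Pearson's r of log2 CPM over the 6 samples among the other 14372 tested genes, were Ndufb1-ps (0.995), Dnajb4 (0.995), Lgals3bp (0.993), Ifi204 (0.991) and Bbx (0.991). They were picked for this likeness, so a shared shape follows from the choice. Each had PH id 3 as its lowest PH sample, as Ddx58 did, and each lay lower in the PM samples. Lgals3bp was at 370.7, 288.3 and 363.5 CPM with PH and 205.6, 200.3 and 226.6 CPM with PM. Ndufb1-ps differed far less, from 91.7 to 99.4 CPM with PH and from 85.2 to 85.9 CPM with PM. Likeness over so few samples ranks shape, not size.

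Markers of other cell types were read beside these changes. Of 6 tested markers of plasmacytoid dendritic cells, which are specialised in interferon production, 1 fell (2 with the block), Bst2, from 268.6 ± 14.6 to 178.5 ± 6.22 CPM, and Bst2 is also interferon-inducible. The summed level of this list was 412.3 to 432.9 CPM with PH and 300.0 to 332.0 CPM with PM, and Bst2 makes up most of the sum and of its difference. The other one lower with the block was Tcf4, at 46.5 ± 2.12 and 38.7 ± 0.916 CPM (edgeR adjusted p = 0.0724, and 0.00125 with the block). All PM samples were below all PH samples for Tcf4. Spib was at 40.4 ± 10.2 and 40.3 ± 8.31 CPM and Runx2 at 63.5 ± 4.51 and 59.2 ± 6.69 CPM, and neither passed in either fit. The defining marker Siglech had 1 count in PH id 4 and 0 in the other samples. Of 8 monocyte markers 1 fell, the chemokine receptor gene Cx3cr1 (-0.78 ± 0.15, SE, edgeR adjusted p = 0.0356), and 5 with the block. Ly6c2 (-0.63 ± 0.19), Ccr2 (-0.67 ± 0.28) and F13a1 (-0.45 ± 0.14) were lower with PM in all 3 ids and passed with the block only. The summed level of this list was 4855.1 to 6629.8 CPM with PH and 5382.8 to 6866.6 CPM with PM, most of it from Chil3 (5620.0 ± 955.6 and 5950.4 ± 742.6 CPM), which did not pass. Of 9 tested neutrophil markers 1 fell, the receptor gene Csf3r (4 lower and 1 higher with the block), with sums of 596.5 to 873.0 and 568.6 to 950.8 CPM. Of 7 tested NK and T cell markers 1 fell, the granzyme gene Gzmb, with sums of 38.9 to 50.2 and 30.7 to 42.0 CPM. The summed level of the macrophage markers was 806.1 to 1208.7 CPM with PH and 856.5 to 1250.1 CPM with PM, most of it from Adgre1 and Csf1r, which did not pass in either fit. Of 11 tested dendritic cell markers 0 passed in edgeR without the block (2 lower, Irf4 and Irf8, and 1 higher, Clec9a, with it), with sums of 9893.6 to 11617.0 and 9638.3 to 11140.1 CPM. B cell markers (9.58 to 18.1 and 9.95 to 22.1 CPM) and mast cell and basophil markers (96.4 to 106.0 and 96.2 to 116.7 CPM) had 0 calls in both fits, and 1 of 6 stromal markers fell (77.3 to 164.9 and 85.8 to 147.2 CPM). The part of cell composition in the changes above was not tested.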

How the data were processed

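RNA of 6 samples was compared, 3 per bacterium. The authors deposited read counts per gene without normalization. Tools named in the submitters' processing notes are featureCounts 1.6.4, STAR 2.5.3a and Trimmomatic, with GRCm38 as the build. The sources used here do not give annotation release, strand setting or treatment of multi-mapping reads, nor whether columns of PM id 1 and PH id 3 hold 1 run or both. Per the labels' protocols, libraries were made from polyadenylated RNA with a stranded kit. Coordinates and exon overlaps come from the table, promoters from RefSeq (GRCm38.p6).

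Counts were fitted with edgeR 4.0.16 (R 4.3.3) on all genes with TMM scaling and filterByExpr (minimum count 10), leaving 14382 genes. PM was compared with PH by the robust quasi-likelihood test with Benjamini-Hochberg adjustment at 0.05. SEs come from the F value, and 95% intervals from its degrees of freedom. The script was tested on simulated data. RPKM used the table's lengths, and log2 CPM a prior count of 2.

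Group members and gene lists were chosen with earlier results of these data known. All 10 members are named. Of the partner lists, the DNA sensing list and most marker lists, genes past the threshold were named, at most the 4 largest, along with preset partners. Genes past it in the Oas and Ifit lists, and some markers, were counted or left out but not named. The results of 1 partner gene and 1 marker gene are not reported here. The motifs and the ratios were chosen after the data were seen.

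Ids were shared by both groups. Deviations from group means correlated at 0.44, 0.32 and 0.24 between PH and PM samples of ids 1, 3 and 4. Other pairs of a PH and a PM sample were at -0.35 to 0.07. Deviations sum to 0 within a group, so these correlations depend on each other. Ids were taken to pair samples, from the counts and not from the labels, but the main fit left this pairing out. Alternatives included that block, other scalings and filters, DESeq2 1.42.0 and leaving out samples.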

Additional observations from a re-analysis of the deposited data

How the results depend on the processing

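All 7 falls kept their direction in the 17 alternatives run, and all 7 passed in each of them except Ddx58 without PH replicate 4 or PM replicate 3 and Eif2ak2 without PH replicate 4. Leaving out 1 sample in turn gave 5 to 7 of the 10 genes. Zbp1 ranged from -1.86 to -1.75 and Adar from -0.50 to -0.43. Ripk3 passed with the replicate block and with the block without id 4. Mavs and Tlr3 passed in none. The count of all genes called was 337, and 2197 with the replicate block (2145, 1580 and 1529 with the block without id 1, 3 or 4). It was 584 with DESeq2, 846 with no low-count filter and 629 without the samples that had a second run. Leaving out 1 sample gave 142 (PH replicate 4), 147 (PM replicate 4), 174 (PM replicate 3), 208 (PH replicate 3) and up to 417 (PM replicate 1). Pathway partners called numbered 5, and 19 with the block, or 4 to 8 without 1 sample, 8 being without PM replicate 1. The cause of these shifts was not tested. The block changed no call of the 10 genes other than that of Ripk3. Tlr3 rests on 12 to 56 counts per sample, and whether depth kept it from passing was not tested. The interferon ligands had too few counts to be tested.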

Other observations

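The ISRE core seen in 4 of the RNA sensing promoters was also counted over all tested genes with a RefSeq promoter window, as a description with no test. It was present in 48 of 178 genes that were lower with PM (27.0%), or 44 of 173 (25.4%) without the RNA sensing genes. It was present in 2 of 74 genes that were higher (2.70%) and in 368 of 10366 genes that were not called (3.55%). This count was made after the data were seen.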
